A study of Mus musculus with 12 samples.

Results

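The genes described are 10 that serve the cutting of proteins into peptides by the immunoproteasome and the loading of those peptides onto MHC class I molecules: Tap1, Tap2, Tapbp, Tapbpl, Psmb8, Psmb9, Psmb10, Psme1, Psme2 and Nlrc5. A probe set was taken for a gene when its annotation names that gene and no other. By this rule 15 of the 45037 probe sets that are not controls belong to 9 of the 10 genes, and Psme2 has none, because its probe set is annotated to both Psme2 and Psme2b. Where a gene had several probe sets, the lead was the brightest on average over all arrays, whatever its change. All 9 leads, and 12 of the 15 probe sets, reached the filter on mean signal (78.4, the median over probe sets) and were tested.

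MHC class I molecules display on the cell surface short peptides cut from proteins inside the cell, and CD8 T cells read them. In cells exposed to interferons the catalytic subunits of the proteasome are exchanged for inducible ones, which with the PA28 cap favour peptides that fit class I molecules. The TAP transporter moves those peptides into the endoplasmic reticulum, where tapasin and related chaperones help to fit them. Dendritic cells use the same machinery to prime CD8 T cells, and NLRC5 is a transactivator of class I genes.

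The cells were dendritic cells that had grown for 6 days in GM-CSF out of C57BL/6 mouse marrow and were then given poly(I:C), a mimic of the double-stranded RNA of viruses. Affymetrix mouse arrays covered untreated cells (0 h) and cells treated for 1, 3, 6, 12 or 24 h, each in 2 experiments. Each experiment used the marrow of 1 mouse, so n = 2 at every time and 12 arrays in all, and this number limits the precision of every value. The labels give 2.5 µg/ml poly(I:C) and 10 ng/ml GM-CSF, which differ from the doses in the methods, and they give the age of the mice as 3 to 4 months in one field and 8 to 10 weeks in another. All groups share strain, culture and, per the methods, female sex and selection for CD11c. Untreated cells were measured at 0 h alone, and an effect of poly(I:C) therefore cannot be told apart from one of time after replating. The array medians ran from 70.9 to 91.4 at a trimmed mean of 500 on every array. Of the dendritic cell markers, Itgax, H2-Aa and Cd74 were bright on all arrays, while Flt3 stayed between 9.32 and 89.9. Zbtb46 ran from 165 to 564 and Ccr7 from 39.9 to 7854, with 12 h signals of Ccr7 as far apart as 625 and 7854. The macrophage markers Csf1r (22071 to 32347) and Adgre1 (2057 to 3740.4) were bright as well, and the summed signal of the 4 macrophage markers was 38286 to 50634 at 0 h and 53580 to 67920 at 12 and 24 h. Of the other macrophage markers, Mertk went from 1143 to 1314 at 0 h to 4440 to 6953 at 12 h and rose by 2.17 (adjusted p = 0.00022). Cd68 rose by 0.51 (adjusted p = 0.0207), with overlapping signals of 11906 to 20989 at 0 h and 15150 to 33371 at 12 h. Adgre1 and Csf1r were not called at 12 h. Adgre1 had signals of 2573 to 3406 at 0 h and 2062 to 2860 at 12 h, and Csf1r 22493 to 25095 and 27249 to 29414. At 12 h 2 of 4 macrophage markers and 2 of 5 tested dendritic cell markers were higher (10.7% of all genes). At 24 h the counts were again 2 of 4 and 2 of 5 (11.5% of all genes). The plasmacytoid dendritic cell markers summed to 449 to 747 at 0 h and to at most 2349 later. Of these, Siglech stayed between 8.57 and 35.8, and Tcf4 rose by 1.51 at 6 h (adjusted p = 0.00399) and 1.54 at 12 h (adjusted p = 0.00109) and was at -0.08 at 24 h. The neutrophil markers summed to 1636 to 3498 over all arrays, most of it from S100a8 (1509 to 3401). S100a9, Elane and Mpo reached at most 110, 87.4 and 104 and were not tested, and Ly6g had no probe set of its own. The sum of the 6 dendritic cell markers was 59716 to 73478 at 0 h and 83895 to 94270 at the late times. The B cell markers summed to at most 74.8 and those of T and NK cells to at most 265 on any array. In a mixed sample, more cells of a type and more RNA per cell cannot be told apart, and the part of these markers' cells in the results was not tested.

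All 9 measured genes of the group rose, with the first calls for Tap1 and Nlrc5 at 3 h. At 1 h none passed the test in either direction, and the log2 changes ran from -0.19 to 0.33. At 3 h 2 of 9 were higher than at 0 h, at 6 h 8 of 9, and at 12 h and 24 h all 9. The median log2 change of the 9 genes was -0.12 at 1 h, 0.38 at 3 h, 1.26 at 6 h, 2.12 at 12 h and 2.13 at 24 h. Over all 10985 genes tested the medians were -0.02, -0.06, -0.15, -0.20 and -0.13. The share of those genes called higher was 0.0819% at 1 h, 1.26% at 3 h, 4.29% at 6 h, 10.7% at 12 h and 11.5% at 24 h, and the share called lower was 20.6% at 12 h and 17.2% at 24 h, where none of the 9 was lower. Calls are those of limma's moderated test on log2(signal + 16) at an adjusted p of 0.05, a scale that understates changes of dim probe sets. At an unadjusted p under 0.05 the counts were 0, 5, 9, 9 and 9, but no share of all genes was taken at that threshold.

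The counts at 12 h and 24 h remained 9 in every fit that left out 1 array, while the earlier ones moved. The 3 h count was 1 if either 0 h array or the first experiment's 3 h array was dropped, and 3 if either 24 h array was. The 6 h count was 5 without the 0 h or the 6 h array of experiment 1. Without the experiment as a replicate block, the 3 h count was 0 and the 6 h count was 6.

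**Figure D1:**
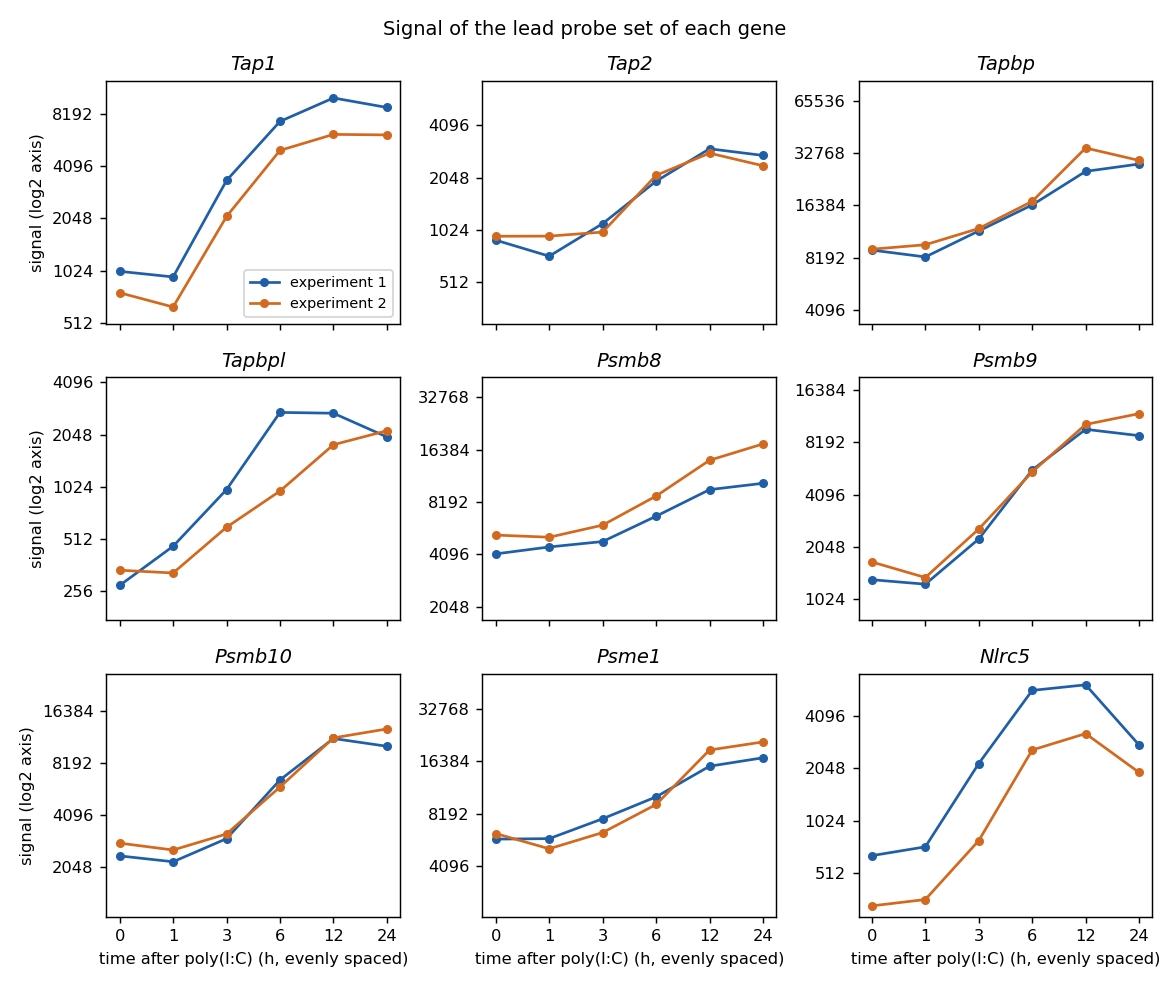
Signal of the lead probe set of the 9 genes (log2 axis, a 25-fold span in every panel) at each time after poly(I:C), with times evenly spaced; each point is 1 array and each line 1 experiment. All genes lie above their 0 h signal in both experiments from 3 h on, where Tap1 and Nlrc5 passed the test, and the lines of Tapbpl part at 6 h.

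Tap1 encodes a subunit of the TAP transporter and was, with Nlrc5, one of the genes that passed at 3 h. The Tap1 signal in experiment 1 was 1015 at 0 h, 943 at 1 h, 3386 at 3 h, 7407 at 6 h, 10107 at 12 h and 8912 at 24 h. Experiment 2 gave Tap1 signals of 764 at 0 h, 633 at 1 h, 2101 at 3 h, 5044 at 6 h, 6237 at 12 h and 6192 at 24 h. Both 1 h values lay below the 0 h value of their experiment, and from 3 h on both values lay above both 0 h values. The log2 change was 1.58 (SE 0.15, adjusted p = 0.000314) at 3 h, 2.77 (SE 0.15, adjusted p = 2.06e-06) at 6 h and 3.15 (SE 0.15, adjusted p = 6.42e-07) at 12 h, an 8.87-fold rise. At 24 h it was 3.05 (95% interval 2.72 to 3.39). The 3 h call was kept without any 1 array, but its adjusted p was 0.187 without the replicate block. Of 3 dimmer Tap1 probe sets, the brightest was at 2.35 at 12 h (SE 0.53, adjusted p = 0.00923). Its 0 h signals, 60.3 and 5.63, lay under the filter of 78.4. Its mean of 129 met that filter only through later arrays, so its rise is not separate support for the lead. The other 2 stayed between 0.75 and 58.2 and were not tested. At 3 h the dimmer tested Tap1 probe set did not pass (1.35, adjusted p = 0.582), and its change in experiment 1 was 0.10. In experiment 2 its signal went from 5.63 at 0 h to 171 at 12 h. That is 30.4-fold on the signals and 8.66-fold after 16 is added to each.

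Tap2 encodes the other chain of the transporter, and its estimates were smaller than those of Tap1 at each time from 3 h on. In experiment 1 the Tap2 signal was 894 at 0 h, 723 at 1 h, 1113 at 3 h, 1951 at 6 h, 2999 at 12 h and 2746 at 24 h. Experiment 2 gave Tap2 signals of 941 at 0 h, 943 at 1 h, 995 at 3 h, 2108 at 6 h, 2830.2 at 12 h and 2395 at 24 h. The Tap2 signal was still close to its 0 h level at 3 h, and both values lay clearly above it from 6 h on, with a peak at 12 h in both experiments. The log2 change was 0.20 (SE 0.18, adjusted p = 0.956) at 3 h, where the 95% interval of -0.21 to 0.60 lay below that of Tap1, 1.25 to 1.91; the difference itself was not tested. It was 1.13 (SE 0.18, adjusted p = 0.00545) at 6 h and 1.65 (SE 0.18, adjusted p = 0.000189) at 12 h, a 3.14-fold rise, and 1.47 at 24 h. The 6 h call was lost without the 0 h array of experiment 1 (1.10, adjusted p = 0.0811) or without the 6 h array of either experiment (1.19 and 1.08, adjusted p = 0.065 and 0.0604).

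Tapbp encodes tapasin, which bridges class I molecules to TAP. The Tapbp signal in experiment 1 was 9048 at 0 h, 8262 at 1 h, 11666 at 3 h, 16459.8 at 6 h, 25685 at 12 h and 28316 at 24 h. Experiment 2 gave Tapbp signals of 9155 at 0 h, 9713 at 1 h, 12046 at 3 h, 17272 at 6 h, 35009 at 12 h and 29694 at 24 h. The values were close between the experiments up to 6 h and farthest apart at 12 h, where experiment 2 was higher. Tapbp rose by 0.89 at 6 h (SE 0.14, adjusted p = 0.00509) and by 1.72 at 12 h (SE 0.14, adjusted p = 2.8e-05), a 3.29-fold rise, and stood at 1.67 at 24 h. The 6 h call was lost without the 0 h array of experiment 2 (0.81, adjusted p = 0.0639), without the 6 h array of experiment 1 (0.84, adjusted p = 0.102) or without the replicate block (adjusted p = 0.0686). The second Tapbp probe set had 0 h signals of 2667 and 2283 in experiments 1 and 2, 6 h signals of 5889 and 6667 and 12 h signals of 8686 and 13504. It rose by 1.34 at 6 h (adjusted p = 0.00264) and 2.13 at 12 h (SE 0.20, adjusted p = 5.62e-05), somewhat more than the lead.

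Tapbpl encodes TAPBPR, a tapasin-related peptide editor, and was the gene on which the experiments differed most. In experiment 1 the Tapbpl signal was 278 at 0 h, 466 at 1 h, 988 at 3 h, 2747 at 6 h, 2718 at 12 h and 1986 at 24 h. Experiment 2 gave Tapbpl signals of 339 at 0 h, 327 at 1 h, 599.8 at 3 h, 969 at 6 h, 1790.2 at 12 h and 2156 at 24 h. In experiment 1 the signal had reached its peak by 6 h, whereas in experiment 2 it was still climbing at 24 h. The largest gap between the log2 changes of the experiments was 1.76, against at most 0.53 for any of the other 8 leads. Tapbpl rose by 2.35 at 6 h (SE 0.35, adjusted p = 0.00314), 2.78 at 12 h (SE 0.35, adjusted p = 0.000396) and 2.69 at 24 h (SE 0.35, adjusted p = 0.000502), with a 3 h change of 1.28 that did not pass (adjusted p = 0.221). Without the 0 h array of experiment 1 the 6 h change was 1.90 and no longer passed (adjusted p = 0.0601). A dimmer Tapbpl probe set had signals from 18.8 to 173 and was not tested.

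Psmb9 encodes LMP2, an inducible catalytic subunit of the proteasome, and had the largest rise of the 3 inducible subunits. The Psmb9 signal in experiment 1 was 1326 at 0 h, 1249.9 at 1 h, 2275 at 3 h, 5679 at 6 h, 9731 at 12 h and 8949 at 24 h. Experiment 2 gave Psmb9 signals of 1677 at 0 h, 1365 at 1 h, 2597 at 3 h, 5536 at 6 h, 10380.1 at 12 h and 11978 at 24 h. Both experiments ran closely together, with a small dip at 1 h and a climb from 3 h to 12 h. The log2 change was 0.70 at 3 h (SE 0.16, adjusted p = 0.0922), 1.90 at 6 h (SE 0.16, adjusted p = 5.02e-05), 2.74 at 12 h (SE 0.16, adjusted p = 2.08e-06) and 2.78 at 24 h (SE 0.16, adjusted p = 2.07e-06), a 6.88-fold rise. Every call against 0 h from 6 h on was kept under all alternatives tried. The Psmb9 calls from 3 to 6 h and from 6 to 12 h were lost under 6 and 15 of 23 alternatives.

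Psmb9 and Tap1 lie side by side on chromosome 17 and are read in opposite directions, and in RefSeq's order of genes there Psmb9, Tap1, Psmb8 and Tap2 follow each other between H2-DMb1 and H2-Ob, genes of the class II pathway. The stretch between the annotated Psmb9 and Tap1 starts is therefore upstream of both. It is shown because Tap1 first passed the test against 0 h at 3 h and Psmb9 at 6 h. At 3 h Psmb9 was at 0.70 (adjusted p = 0.0922), and both genes were called higher from 1 to 3 h. The Psmb9 call in that step (0.89, adjusted p = 0.0283) was lost under 13 of 22 alternatives, that of Tap1 under 1. Whether Tap1 and Psmb9 differ in timing was not tested. The stretch is 225 bases long, chr17:34187331-34187555, plus strand, RefSeq on GRCm38.p6, read from the Psmb9 side towards Tap1.
Psmb9 to Tap1: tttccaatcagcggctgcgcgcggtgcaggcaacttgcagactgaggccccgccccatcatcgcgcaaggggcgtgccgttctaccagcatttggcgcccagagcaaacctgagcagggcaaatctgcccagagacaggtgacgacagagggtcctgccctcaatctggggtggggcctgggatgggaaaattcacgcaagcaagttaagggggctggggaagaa
The bases stand in lower case throughout because none of 3 patterns searched on both strands, TTCNNNGAA (GAS-like), GAAANNGAA (IRF element-like) and GGGNNTTCC (kB-like), matched in it. Of all 32851 promoter windows of 300 bases in the table, 8.298%, 8.56% and 5.82% held these patterns. Windows were given for 7 of the 10 genes, and Tap2, Tapbpl and Nlrc5 were not analysed here. Psmb8 had a GAS-like match and Psme1 an IRF element-like one, and no match was found in the windows of Tap1, Psmb9, Psmb10, Tapbp or Psme2. The stretch around the Psmb8 match is 60 bases long, chr17:34198072-34198131, plus strand, GRCm38.p6. The match within it, in capitals, begins 97 bases before the annotated start and reads the same pattern on either strand.
Psmb8: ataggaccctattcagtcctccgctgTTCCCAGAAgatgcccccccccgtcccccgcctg
The Psme1 match, TTCGCTTTC, is on the minus strand and begins at base 11 of the transcript. A match of letters is a description and says nothing of whether a factor binds there.

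Psmb10 encodes MECL-1, another inducible catalytic subunit. In experiment 1 the Psmb10 signal was 2388 at 0 h, 2209 at 1 h, 3000.3 at 3 h, 6535 at 6 h, 11316 at 12 h and 10207 at 24 h. Experiment 2 gave Psmb10 signals of 2828 at 0 h, 2582 at 1 h, 3194 at 3 h, 5951 at 6 h, 11405 at 12 h and 12844 at 24 h. The values stayed near the 0 h signals up to 3 h and were well above them by 6 h in both experiments. Psmb10 rose by 1.26 at 6 h (SE 0.16, adjusted p = 0.000926), 2.12 at 12 h (SE 0.16, adjusted p = 1.12e-05) and 2.13 at 24 h (SE 0.16, adjusted p = 1.22e-05), a 4.39-fold rise, and these calls were kept under all alternatives tried. At 3 h the change was 0.25 (adjusted p = 0.87).

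Psmb8 encodes LMP7, the remaining inducible catalytic subunit, and had the lowest estimate of the 9 genes at 12 h. The Psmb8 signal in experiment 1 was 4116 at 0 h, 4511 at 1 h, 4847 at 3 h, 6781 at 6 h, 9644 at 12 h and 10489 at 24 h. Experiment 2 gave Psmb8 signals of 5281 at 0 h, 5133 at 1 h, 6025 at 3 h, 8860.1 at 6 h, 14235 at 12 h and 17671 at 24 h. Experiment 2 was the higher at each time, and in both the signal was highest at 24 h. The log2 change was 0.21 at 3 h (adjusted p = 0.917), 0.73 at 6 h (SE 0.16, adjusted p = 0.0267), 1.33 at 12 h (SE 0.16, adjusted p = 0.000308) and 1.54 at 24 h (SE 0.16, adjusted p = 0.000136), a 2.91-fold rise. The 6 h call was weak: it was lost under 10 of 23 alternatives, among them leaving out any 1 array of 0, 3 or 6 h (changes of 0.69 to 0.77, adjusted p = 0.0564 to 0.253). A dimmer Psmb8 probe set rose by 0.99 at 12 h (SE 0.33, adjusted p = 0.0498) and 1.65 at 24 h (SE 0.33, adjusted p = 0.00543).

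Psme1 encodes the alpha subunit of PA28, the cap that opens the proteasome core, and was the one of the 9 genes that did not pass at 6 h. In experiment 1 the Psme1 signal was 5834 at 0 h, 5872 at 1 h, 7642 at 3 h, 10214 at 6 h, 15334 at 12 h and 17144 at 24 h. Experiment 2 gave Psme1 signals of 6279 at 0 h, 5134 at 1 h, 6366 at 3 h, 9232 at 6 h, 19001 at 12 h and 21153 at 24 h. The signal of experiment 2 was still at its 0 h level at 3 h, and at 12 h both values were far above every earlier one. The 6 h change was 0.68 (SE 0.18) and narrowly missed the threshold (adjusted p = 0.0525); it passed under 8 of 23 alternatives, among them leaving out either 24 h array, median centring and quantile normalization (adjusted p = 0.0106, 0.0401 and 0.0266). Psme1 rose by 1.49 at 12 h (SE 0.18, adjusted p = 0.000259) and 1.65 at 24 h (SE 0.18, adjusted p = 0.000156), a 3.14-fold rise. The probe set annotated to both Psme2, the beta subunit of PA28, and Psme2b is not counted among the 9. Its 0 h signals were 5979 and 7364 in experiments 1 and 2, the 6 h signals 12665 and 11455, the 12 h signals 17969 and 19226 and the 24 h signals 16572 and 22852. It rose by 0.86 at 6 h (SE 0.17, adjusted p = 0.0185) and 1.48 at 12 h (SE 0.17, adjusted p = 0.000257), but which of the Psme2 and Psme2b transcripts it reads was not tested.

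Nlrc5 encodes the class I transactivator and had, with Tap1 within its error, the highest estimate of the 9 genes at 12 h, followed by lower values at 24 h. The Nlrc5 signal in experiment 1 was 643 at 0 h, 723 at 1 h, 2180.4 at 3 h, 5746 at 6 h, 6185 at 12 h and 2786 at 24 h. Experiment 2 gave Nlrc5 signals of 330.5 at 0 h, 359 at 1 h, 785 at 3 h, 2608 at 6 h, 3240.3 at 12 h and 1936 at 24 h. Experiment 1 was the brighter at each time, the log2 changes of the experiments differed by at most 0.53, and both were lower at 24 h than at 12 h. Nlrc5 rose by 1.47 at 3 h (SE 0.21, adjusted p = 0.00603), 3.02 at 6 h (SE 0.21, adjusted p = 1.4e-05) and 3.23 at 12 h (SE 0.21, adjusted p = 5.01e-06), a 9.40-fold rise. At 24 h the change was 2.29 (95% interval 1.82 to 2.77). The 3 h call was lost without the 0 h array of experiment 1 (1.43, adjusted p = 0.105) or of experiment 2 (1.51, adjusted p = 0.0581), without the 3 h array of experiment 1 (1.19, adjusted p = 0.154), or without the replicate block.

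To place the genes in order, the time at which each reached 50% of its largest log2 change was read from straight lines between neighbouring times, in each experiment on its own. By the mean of both experiments Tap1 came first, at 2.92 and 3.15 h in experiments 1 and 2, and Nlrc5 followed at 2.85 and 3.71 h. In experiment 1 alone, Tapbpl and Nlrc5 were ahead of Tap1. Tapbpl stood next by its mean, at 2.70 and 5.27 h, a spread that covers the places of all genes ahead of it. In the middle were Psmb9 at 4.50 and 5.17 h, Tap2 at 5.07 and 4.98 h, and Psmb10 at 5.12 and 6.12 h. Tapbp (5.76 and 6.31 h), Psmb8 (5.72 and 7.10 h) and Psme1 (5.78 and 7.85 h) came last. The means thus spanned 3.03 h for Tap1 to 6.81 h for Psme1. This order used the lead probe sets only. On the second Tapbp probe set, the 6 h changes were 1.14 and 1.54 in experiments 1 and 2. Those were past 50% of its largest changes, 1.70 and 2.56 at 12 h. That point therefore fell before 6 h in both experiments, and the time for Tapbp depends on the probe set. So do those for Psmb8 and Tap1. The dimmer Psmb8 probe set, with largest changes of 0.98 and 2.31 at 24 h, reached 50% later than its lead. It was at 0.10 at 6 h in experiment 1 and at 0.999 at 12 h in experiment 2. The dimmer tested Tap1 probe set reached 50% after 3 h in experiment 1 (0.10 at 3 h, 1.90 at 6 h). In experiment 2 it did so before 3 h, with 2.61 at 3 h and its largest change at 6 h. Its 0 h signals lay under the filter.

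The experiments ordered 29 of the 36 pairs of genes alike, and in 22 pairs the times of the earlier gene both lay ahead of both times of the later. Neighbours in the order mostly could not be separated: of 8 neighbouring pairs, Tap2 and Psmb10 alone did not overlap. Tap1 was ahead of Tap2 in both experiments, and Psmb9 was ahead of Psmb10 and Psmb8 in both. With 2 experiments the order is a description, with no test. The times also rest on the log2 scale. On the linear signal scale the means ran from 4.34 h for Nlrc5 to 8.12 h for Psme1, with Nlrc5 ahead of Tap1 and Tap2 ahead of Tapbpl and Psmb9, while Psmb10, Tapbp, Psmb8 and Psme1 kept the last 4 places.

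**Figure D2:**
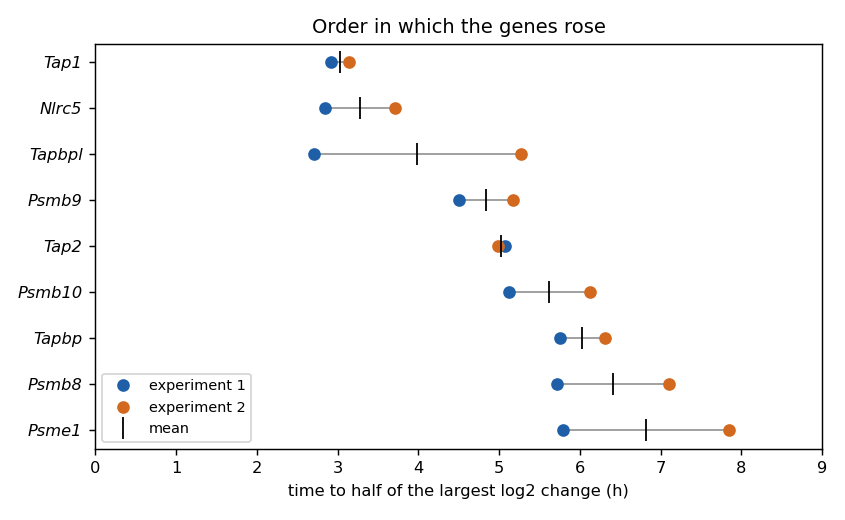
Time in hours at which the lead probe set of each gene reached 50% of its largest log2 change, read by straight lines between the sampled times. Points are the 2 experiments, the tick is their mean and genes are sorted by that mean; Tap1 and Nlrc5 lie near 3 h, Psmb8 and Psme1 between 5.72 and 7.85 h, and Tapbpl spreads most.

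The steps between neighbouring times were tested too, but they do not place every gene. No step was called for Tap2, Tapbpl, Psmb8 or Psme1, although all of them rose. A step without a call could be as large as a called one. From 3 to 6 h, Tapbpl was at 1.07 (adjusted p = 0.315), while Psmb10 passed at 1.01 (adjusted p = 0.0212). From 1 to 3 h, 3 of 9 genes were higher (Tap1, Nlrc5 and Psmb9) beside 1% of all genes, and from 3 to 6 h 4 of 9 (Tap1, Nlrc5, Psmb9 and Psmb10) beside 0.674%. From 6 to 12 h, 3 of 9 were higher (Tapbp, Psmb9 and Psmb10) beside 0.792%. From 12 to 24 h none was higher (2.57% of all genes) and Nlrc5 was lower (2.21% of all genes). The Tap1 step from 1 to 3 h, a rise of 1.77 (SE 0.15, adjusted p = 0.000162), was kept without any 1 array. The Nlrc5 change from 12 to 24 h was -0.94 (SE 0.21, adjusted p = 0.04), and 17 of 23 alternatives lost it, among them the fits without any 1 array of 0, 1, 3, 6 or 12 h (adjusted p = 0.0583 to 0.17). Without 1 array the step counts ran from 1 to 3 (1 to 3 h), 0 to 6 (3 to 6 h) and 0 to 5 (6 to 12 h). The lowest counts came without a 1 h array or the 3 h array of experiment 1 in the first step, without a 6 h array or the 3 h array of experiment 2 in the second, and without any 1 array of 0, 1, 3 or 6 h or the 12 h array of experiment 2 in the last. The highest came without either 24 h array. Without the replicate block, none of the 9 genes was called higher in any of these steps.

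After 12 h most of the genes stayed near their peak. By their leads, Tap1 and Tap2 peaked at 12 h in both experiments, as did Nlrc5, and Psmb8 and Psme1 were highest at 24 h in both. The dimmer Tap1 probe set that was tested was highest at 6 h instead. Its signals were 269 and 246 at 6 h in experiments 1 and 2, against 212 and 171 at 12 h. Psmb9, Psmb10, Tapbp and Tapbpl had their peaks at different times in the experiments. At 24 h Nlrc5 kept 64.6% and 77.2% of its largest log2 change in experiments 1 and 2, and each of the other 8 genes kept at least 84.8% in either experiment.

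The inducible catalytic subunits replace Psmb5, Psmb6 and Psmb7, and PA28 competes with the caps made from Psme3 and Psme4. Of these 5 constitutive counterparts, none was called at 3 or 6 h and 1 was higher at 12 h, beside 10.7% of all genes. Psmb5, which LMP7 replaces, had 0 h signals of 7786 and 9096 in experiments 1 and 2 and 12 h signals of 7410.1 and 8441. Psmb7, which MECL-1 replaces, had 0 h signals of 12399.7 and 15866 and 12 h signals of 11844 and 19234. The log2 changes at 12 h were -0.09 for Psmb5 (95% interval -0.38 to 0.20), 0.11 for Psmb7 (-0.23 to 0.44) and 0.51 for Psmb6 (0.09 to 0.93, adjusted p = 0.0678). The intervals of the inducible partners lay above these: 0.97 to 1.68 for Psmb8, 1.77 to 2.47 for Psmb10 and 2.39 to 3.09 for Psmb9. The difference itself was not tested. Psmb6 passed at 24 h, at 0.63 (adjusted p = 0.0314), a call lost in 8 of the fits that left out 1 array, with the highest adjusted p (0.214) without the 0 h array of experiment 2. After quantile normalization the Psmb6 change at 24 h was 0.36 (adjusted p = 0.0776).

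Psme4, the PA200 cap, rose by 0.79 at 12 h (SE 0.19, adjusted p = 0.0126), with 0 h signals of 2802 and 2818 and 12 h signals of 4782 and 4981. That call was lost without the 0 h array of experiment 1 (0.69, adjusted p = 0.11) or the 12 h array of experiment 2, and Psme4 did not pass at 24 h (0.35, adjusted p = 0.21). Psme3, the PA28 gamma subunit of nuclear proteasomes, had a change of -0.39 at 12 h (adjusted p = 0.163).

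**Figure D3:**
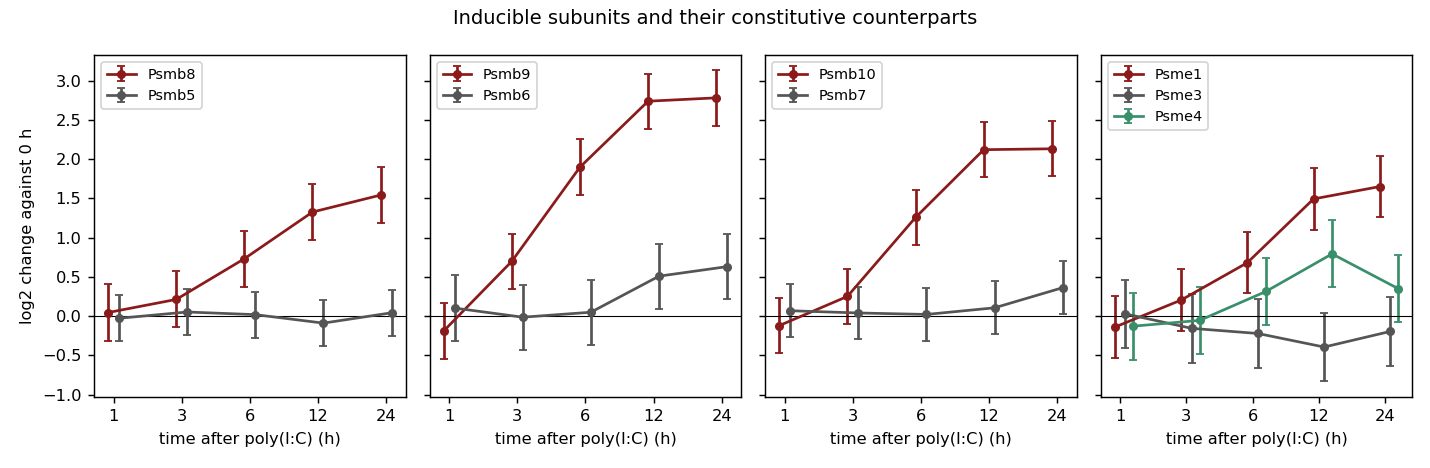
Log2 change against 0 h at 1, 3, 6, 12 and 24 h for the inducible subunits (dark red) and their constitutive counterparts (grey and green); points are estimates over the 2 experiments and bars are 95% intervals from limma. At 12 h the inducible genes lie between 1.33 and 2.74, and Psmb5, Psmb6 and Psmb7 between -0.09 and 0.51.

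Of 5 proteasome assembly factors and 1 inhibitor, 3 assembly factors were lower at 12 h (20.6% of all genes) and the inhibitor was higher (10.7% of all genes), with a median of -0.63 over the 6 genes. Psmg1 and Psmg2, which pair to build the alpha ring, were the largest falls. Psmg1 had 0 h signals of 1059 and 1492 and 12 h signals of 332 and 363, and Psmg1 fell by 1.81 (SE 0.19, adjusted p = 0.000115). Psmg2 had 0 h signals of 1067 and 1288 and 12 h signals of 259 and 321, and Psmg2 fell by 1.97 (SE 0.17, adjusted p = 4.25e-05). Both calls were kept without any 1 array and at 24 h, where the changes were -1.50 and -1.49. Psmg3 fell by 0.75 at 12 h (adjusted p = 0.0208), a call lost without either 0 h or either 12 h array (at most adjusted p = 0.134) and after quantile normalization (-0.48, adjusted p = 0.121). Pomp, the maturation factor needed by the inducible core, was at 0.43 at 12 h (adjusted p = 0.0568) and rose by 0.71 at 24 h (SE 0.15, adjusted p = 0.00692), a call lost without the 0 h array of experiment 2 (0.67, adjusted p = 0.0647). Psmf1, a proteasome inhibitor, was at 0.58 at 12 h (adjusted p = 0.031), a call lost without any 1 array of 0, 3 or 12 h (at most adjusted p = 0.166). The mean of the Psmf1 probe sets gave -0.080 instead, so the direction depends on the probe set. Psmg4 was at -0.52 (adjusted p = 0.143).

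Of 11 other subunits of the 20S core, 3 were higher at 12 h (10.7% of all genes) and none lower (20.6%), with a median of 0.13. They were the alpha subunits Psma5 at 0.66 (adjusted p = 0.0221), Psma4 at 0.62 (adjusted p = 0.00665) and Psma3 at 0.49 (adjusted p = 0.0288). Without 1 array this count ran from 0 to 5; each call was lost without some array of 0 or 12 h, and the highest adjusted p were 0.146, 0.0662 and 0.146. After quantile normalization Psma5 was at 0.41 (adjusted p = 0.062) and Psma3 at 0.20 (adjusted p = 0.221). Psmb2, a beta subunit, was at 0.50 and did not pass (adjusted p = 0.104).

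Among 6 partners of peptide loading, 2 were higher (10.7% of all genes) and 1 was lower (20.6%) at 12 h, with a median of -0.01. Erap1, which trims peptides in the endoplasmic reticulum, had 0 h signals of 789 and 607 and 12 h signals of 1505 and 1428. It rose by 1.07 at 12 h (SE 0.18, adjusted p = 0.00208) and by 1.29 at 24 h (SE 0.18, adjusted p = 0.000754). B2m, the light chain of class I molecules, rose by 0.60 at 12 h (SE 0.13, adjusted p = 0.00615) from 0 h signals of 28696 and 30688, and lost the call without the 0 h array of experiment 2 (0.47, adjusted p = 0.0718) or the 12 h array of experiment 2. After quantile normalization the B2m change was 0.13 at 12 h (adjusted p = 0.347) and 0.22 at 24 h (adjusted p = 0.116). Uggt1, a folding sensor for glycoproteins, fell by 1.07 at 12 h (SE 0.19, adjusted p = 0.00234). The chaperones Calr, Canx and Pdia3 did not pass the test.

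Of 7 cytosolic peptidases, which cut peptides further before transport or destroy them, 1 was higher (10.7% of all genes) and 4 were lower (20.6%) at 12 h, with a median of -0.81. Lap3, leucine aminopeptidase, had 0 h signals of 3839 and 2314 and 12 h signals of 12333 and 11107 and rose by 1.97 (SE 0.26, adjusted p = 0.000497). Thop1, thimet oligopeptidase, went from 397 and 342 to 118 and 133 and fell by 1.44 (SE 0.27, adjusted p = 0.0035). These calls were kept without any 1 array. Tpp2 fell by 0.81 (adjusted p = 0.00952), Ide by 1.02 (adjusted p = 0.0185) and Blmh by 0.85 (adjusted p = 0.0352), and each lost its call without 2, 3 and 5 of the arrays in turn (at most adjusted p = 0.0978, 0.153 and 0.27). Npepps and Nrd1 did not pass. Without 1 array the number of peptidases called lower ran from 1 to 5.

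Among regulators of class I or interferon-driven genes, 9 were measured on a probe set of their own. At 3 h 3 of the 9 were higher (1.26% of all genes), the time at which Tap1 and Nlrc5 alone among the 9 peptide loading and immunoproteasome genes passed. Stat2, a component of the interferon-stimulated factor ISGF3, had 0 h signals of 513 and 405, 3 h signals of 3163 and 2290.4 and 12 h signals of 6766 and 6318. Irf1, an activator of Tap1 and the inducible subunits in other settings, had 0 h signals of 956 and 723, 1 h signals of 1674 and 1587 and 3 h signals of 7471 and 3639. Irf9, also of ISGF3, had 0 h signals of 767 and 579 and 3 h signals of 2389.5 and 1881. Each of these genes was higher in both experiments at 3 h, and Irf1 was higher in both already at 1 h, where no regulator passed the test. The log2 changes at 3 h were 2.63 for Irf1 (SE 0.28, adjusted p = 0.000638), 2.52 for Stat2 (SE 0.17, adjusted p = 2.92e-05) and 1.65 for Irf9 (SE 0.18, adjusted p = 0.000927).

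At 12 h 5 of the 9 regulators were higher (10.7% of all genes) and none lower, with a median of 1.32. Stat2 stood at 3.80, Irf1 at 2.80 and Irf9 at 1.73. Rfx5, a DNA-binding partner of NLRC5, rose by 1.12 at 6 h (adjusted p = 0.0091) and by 1.32 at 12 h (SE 0.20, adjusted p = 0.00105) and was back at 0.05 at 24 h (adjusted p = 0.881). Its 6 h call was lost without the 0 h or the 6 h array of experiment 1. Irf8, named after its values were seen, was at 1.48 (adjusted p = 0.0462), a call lost without any of 7 single arrays (0.78, adjusted p = 0.373 without the 0 h array of experiment 1). Without the replicate block the 12 h calls of Irf8, Tpp2, Ide, Blmh, Psmg3, Psmf1, Psme4, B2m, Psma3, Psma4 and Psma5 were lost (adjusted p = 0.0523 to 0.223).

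**Figure D4:**
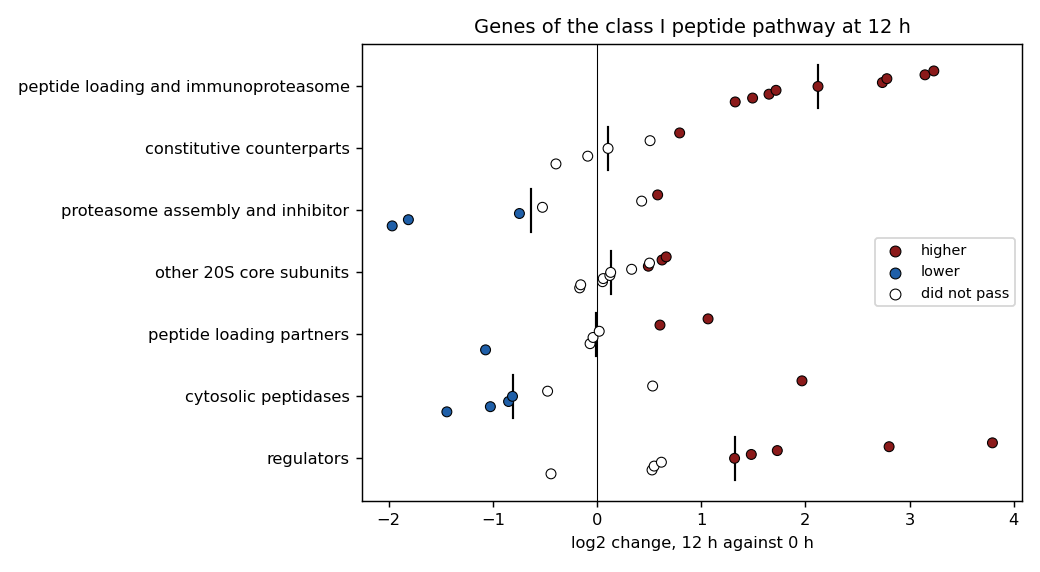
Log2 change at 12 h against 0 h for the 9 genes and the 6 lists of related genes; each point is a gene's lead probe set, filled red where higher and blue where lower at an adjusted p of 0.05 in limma, and bars are list medians. The 9 genes lie between 1.33 and 3.23 and all passed, while assembly factors and peptidases have medians of -0.63 and -0.81.

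The genes outside the group whose course was most like the mean course of the 9 were Uba7 (r = 0.997), P2ry14 (0.996), Ifitm3 (0.996), Epsti1 (0.995) and Lgals9 (0.995). The likeness is Pearson's r over the 12 arrays after removing each experiment's mean, given as a description because the arrays of an experiment share a mouse. Uba7 encodes the activating enzyme of the ubiquitin-like modifier ISG15, and Ifitm3 an interferon-induced membrane protein that restricts viruses. Their log2 changes at 12 h were 4.07 for Uba7, 1.85 for P2ry14, 2.64 for Ifitm3, 3.20 for Epsti1 and 2.09 for Lgals9. Among the 9 genes themselves, r with their own mean ran from 0.939 for Nlrc5 to 0.996 for Psmb9.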

How the data were processed

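RNA of 12 cell samples was hybridized to Affymetrix mouse arrays. The deposited signal intensities were made by the authors' core facility with MAS5.0, each experiment apart, and each array has a mean of 500 after 2% of the values are left out at either end. No image files were used here. Gene names came from the array's annotation, in which 34945 probe sets name 1 gene, 932 several and 9160 none.

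Log2(signal + 16) was fitted in limma 3.58.1 (R 4.3.3) with time and experiment as terms on all 12 arrays, with empirical Bayes and an intensity trend (5 residual and 5.238 prior degrees of freedom). Tests covered the 22519 probe sets whose mean signal was not under the median, p-values were adjusted over all of them by Benjamini-Hochberg at 0.05, and background shares were taken over 10985 genes. The replicate block is in the main fit because the methods state that 1 mouse gave all cells of an experiment. Deviations of same-numbered arrays from their time means correlated at r = 0.2562 to 0.6596 over 15 pairs of times. All comparisons share the 0 h arrays. The fit was tested on simulated data. Orders, shares and figures used Python 3.11.15, numpy 2.4.6, pandas 2.3.3, scipy 1.17.1 and matplotlib 3.10.9; promoter windows came from RefSeq on GRCm38.p6.

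Genes named are the 10 members, all genes of lists of 8 or fewer, and the 4 with the smallest p at 12 h in longer lists, plus Irf8 and the cell type markers printed, named after their values were seen. The members and lists were chosen with earlier results of these data known, so their direction is not independent support. Alternatives were other pseudocounts, filters, scalings, probe set summaries and sets of arrays, no trend and no replicate block.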

Additional observations from a re-analysis of the deposited data

How the results depend on the processing

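Across 23 alternatives, 22 of the 39 called changes of the 9 genes kept their call, among them all 18 at 12 and 24 h against 0 h, and none changed sign. Counts of genes higher than at 0 h ran from 1 to 3 at 3 h and from 5 to 9 at 6 h when 1 array was left out, and stayed at 0 at 1 h and at 9 at 12 and 24 h. For the steps, leaving out 1 array gave 1 to 3 genes from 1 to 3 h, 0 to 6 from 3 to 6 h, 0 to 5 from 6 to 12 h and 0 from 12 to 24 h. With no replicate block, the counts were 0 at 3 h and 0 in the steps from 1 to 3, 3 to 6 and 6 to 12 h; the 12 and 24 h counts stayed at 9. With no trend, the 3 steps gave 1, 0 and 0. Arrays centred on their median, or both 1 h arrays left out, gave 0 from 6 to 12 h. With only the 4 arrays of the times compared, the counts were 5 at 3 h and 7, 9 and 6 in the 3 steps, and the causes were not tested. Shares of all genes were taken in the main fit only, so these counts have no share to be set beside. Quantile normalization moved the median of all genes at 12 h from -0.20 to -0.08, and at 24 h from -0.13 to -0.01. For the related lists, 24 of 50 called changes kept their call; Psmf1 at 12 h was -0.080 on the mean of its probe sets. The number of arrays and the dim signals limit precision.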
